A study of Homo sapiens with 40 samples.

Results

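The proteasome genes described here were the 48 autosomal protein-coding genes of GENCODE 44 whose symbols begin with PSMA, PSMB, PSMC, PSMD, PSME, PSMF or PSMG followed by digits, out of 18764 autosomal protein-coding genes. The rule left out 1 further gene. The symbols of PSMC3IP and PSME3IP1 go on after the digits, and these genes encode partner proteins of a subunit or an activator. The other 46 genes, which encode components of the particle, activators, an inhibitor and assembly chaperones, therefore carry the account. Each gene was represented by the H3K27ac peak and by the CTCF peak with the highest mean count within 2 kb of its start sites. The rule used gene symbols, positions and that mean, and no comparison between states.

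The data came from EndoC-βH3 cells, a human beta-like cell line of genotype WT in the labels that carries an excisable immortalizing transgene (SV40 large T and hTERT) and a tamoxifen-inducible CreER recombinase. Senescent cells had been treated with 4-OHT (4-hydroxytamoxifen) for 3 weeks to excise the transgene, non-senescent cells had the control treatment, and all libraries came from this 1 line, so senescence and loss of the transgene cannot be told apart. Chromatin immunoprecipitation with sequencing (ChIP-seq) was carried out for H3K27ac and CTCF in 3 libraries of each state, and for H3K4me1 and Rb in 2 of each, each with an input library, 40 libraries in all. The deposited tables gave 51489 H3K27ac peaks and 51457 CTCF peaks with 1 mean of normalized counts over the 6 libraries of both states. Values of single libraries were not analysed here, so no level has a spread between replicates, neighbours in an order of levels cannot be said to differ, and no difference in a level between states is given. How deeply each library was sequenced is not shown by the files. Added up across all peaks, the mean counts gave 19239499 (H3K27ac) and 6136424 (CTCF). Cells were measured in bulk, so more mark per cell and more cells with the mark cannot be told apart. The labelled cell type was checked by its markers. All 11 beta-cell markers had an H3K27ac peak at a start site, with mean counts from 1158 to 16247, whereas GCG, PPY, PRSS1, CFTR, PTPRC, PECAM1, COL1A1 and COL3A1 had none. SST (mean count 54.2), CPA1 (1498) and KRT19 (913) had one.

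The proteasome is the large protease that degrades proteins tagged with ubiquitin. Its 20S core is a stack of rings of alpha subunits (PSMA genes), which form the gate, and beta subunits (PSMB genes), some of which carry the proteolytic sites. The 19S cap binds and unfolds substrates with a ring of ATPases (PSMC genes) and with non-ATPase subunits (PSMD genes) that include ubiquitin receptors and a deubiquitinase. PSME genes encode activators that can replace the 19S cap, PSMF1 encodes an inhibitor and regulator of the core, and PSMG genes encode chaperones of core assembly. Interferon induces alternative catalytic subunits (the immunoproteasome) and the activator subunits PSME1 and PSME2. The transcription factor NFE2L1 is known to raise the subunit genes together when proteasome activity falls. Beta cells make and fold large amounts of proinsulin and depend on protein degradation. H3K27ac marks active promoters and enhancers, and CTCF is a DNA-binding protein that anchors chromatin loops and also occupies promoters.

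The promoter sequences are given first, since the values below concern these start sites. The set of RefSeq promoters used here (GRCh38.p14) held 300 bases, 250 before and 50 from the start, for 42 of the 48 genes. In all 42 the start was the canonical start of GENCODE. PSMA7, PSMB1, PSMB6, PSMB7, PSMD4 and PSMG3 had no entry in the set used. Part of the interferon-stimulated response element (GAAANNGAA, bound by IRF and STAT complexes) was searched on both strands. It was found in 7 of 42 proteasome promoters (16.7%) and in 6.83% of 14577 promoters of the same length. The 7 included the 4 interferon-inducible genes PSMB8, PSMB10, PSME1 and PSME2. These matches are shown because each lay within 28 bases of the start and all 4 held the same letters, GAAAGCGAA, on one strand or the other. Capitals mark the match, and the sequence reads along the strand of the gene.
PSMB8 (minus strand, chr6:32844032-32844060): atctgtggctTTCGCTTTCacttcctcct
PSMB10 (minus strand, chr16:67936853-67936881): gggtaaaggcGAAAGCGAAagcaggaagt
PSME1 (plus strand, chr14:24136190-24136218): ccctaccgctTTCGCTTTCccttcgcggt
PSME2 (minus strand, chr14:24146620-24146648): cctggggagtGAAAGCGAAagcccgggcg
PSMG4 (plus strand, chr6:3258904-3258932): ttccggggccGAAAGCGAAagcgcgctcg
The fifth gene with these letters, PSMG4, encodes an assembly chaperone. GAAAGCGAA was present in 52 of all 14577 promoters (0.357%), a comparison made after the matches had been seen. PSMB4 and PSMC2 held other letters, GAAAAAGAA and GAAAGGGAA. A match describes letters and is not evidence of binding.

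The core of the antioxidant response element (TGACNNNGC), which NFE2L1 and NFE2L2 bind with small MAF proteins, was found in 11 of 42 proteasome promoters (26.2%) and in 14.2% of all. The 11 genes were PSMB3, PSMC4, PSMD1, PSMD3, PSMD5, PSMD9, PSMD12, PSME1, PSME2, PSME4 and PSMG1. Several were PSMD and PSME genes, whereas PSMB3 was the only core gene, PSMC4 the only ATPase gene and PSMG1 the only PSMG gene. None of the 7 PSMA genes with an entry was among them. At the 14.2% of all promoters, few or no matches would be found among so few genes. These 5 matches are shown as those of 1 core subunit, 3 genes of the PSMD series and the large activator PSME4, with the match in capitals.
PSMB3 (plus strand, chr17:38752627-38752655): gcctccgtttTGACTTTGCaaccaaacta
PSMD3 (plus strand, chr17:39980760-39980788): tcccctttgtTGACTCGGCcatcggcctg
PSMD12 (minus strand, chr17:67366724-67366752): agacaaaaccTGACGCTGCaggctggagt
PSMD5 (minus strand, chr9:120843038-120843066): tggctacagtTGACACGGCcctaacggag
PSME4 (minus strand, chr2:53971009-53971037): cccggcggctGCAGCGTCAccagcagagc
The first 4 read TGAC in the direction of the gene, and PSME4 holds the core on the opposite strand. A single promoter could hold several elements. The 250 bases before the PSMB3 start are shown because this gene's H3K27ac peak had the largest width and mean count of the set. That peak also held the start of PCGF2, and its density was not the highest. In the PSMB3 stretch, capitals mark the E2F, antioxidant response and NF-Y letters in this order. PSMD9 is shown beside PSMB3 as a PSMD gene with both E2F letters and antioxidant response cores, 2 of the latter. An ETS match runs directly into 1 of these cores.
PSMB3 (plus strand, chr17:38752491-38752740): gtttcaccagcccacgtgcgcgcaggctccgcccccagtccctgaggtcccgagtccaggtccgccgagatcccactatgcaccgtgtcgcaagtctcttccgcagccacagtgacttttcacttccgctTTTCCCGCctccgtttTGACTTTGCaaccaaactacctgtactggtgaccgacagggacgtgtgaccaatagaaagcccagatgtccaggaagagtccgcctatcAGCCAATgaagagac
PSMD9 (plus strand, chr12:121888540-121888789): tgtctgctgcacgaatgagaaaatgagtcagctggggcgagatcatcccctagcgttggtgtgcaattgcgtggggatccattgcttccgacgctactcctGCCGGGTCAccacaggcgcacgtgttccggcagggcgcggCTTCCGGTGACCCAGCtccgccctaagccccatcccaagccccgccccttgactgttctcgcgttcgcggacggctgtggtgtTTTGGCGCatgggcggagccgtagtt

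The ETS letters CCGGAAG, which ETS factors bind, gave the widest gap to the background in percentage points. They were present in 17 of 42 proteasome promoters (40.5%) against 14.9% of all promoters. The 17 genes were PSMA6, PSMA8, PSMC1, PSMC2, PSMC6, PSMD6, PSMD7, PSMD8, PSMD9, PSMD12, PSMD13, PSMD14, PSME4, PSMF1, PSMG4 and both partner genes. The 3 matches shown are those of PSMD14, the deubiquitinase of the cap, PSMC6, an ATPase, and PSMD6, which also carried one of the highest CTCF values.
PSMD14 (plus strand, chr2:161308411-161308437): actagtgaacCCGGAAGtgcttcgcgg
PSMC6 (plus strand, chr14:52707083-52707109): acggggccaaCCGGAAGgggagggctc
PSMD6 (minus strand, chr3:64023515-64023541): ggagacgggaCCGGAAGccgggccgca
E2F letters (TTTCCCGC or TTTGGCGC) were present in 5 of 42 (11.9%) against 3.17% of all, the widest gap as a ratio of the 2 shares, in PSMA1, PSMB3, PSMD5, PSMD9 and PSMC3IP. NF-Y letters (AGCCAAT) were present in 7 of 42 (16.7%) against 8.81%. SP letters (GGGCGG) were present in 30 of 42 (71.4%) against 62.2%, and the TATA letters (TATAAA) in 5 of 42 (11.9%) against 9.47%. YY1 letters (AAGATGGCG) occurred in 2, PSMA2 and PSMD11 (3.02% of all promoters), and the NRF1 letters (CGCATGCG) in PSMA4 alone (2.97% of all). The CREB letters (TGACGTCA) occurred in 0 of 42 (2.83% of all). All motifs were searched on both strands, and 3 ETS matches overlapped an SP match. Base composition did not set these promoters apart by much. Their median GC content was 62.0% against 64.0% for all promoters, and the median ratio of observed to expected CpG was 0.788 against 0.787. A protein-coding gene began within 1 kb on the opposite strand, pointing away, at 7 of 48 genes (14.6%) and at 9.58% of all genes. These pairs were PSMA2 with MRPL32, PSMA7 with SS18L1, PSMD13 with SIRT3, PSME2 with RNF31, PSME4 with ACYP2, PSMG2 with CEP76 and PSME3IP1 with RSPRY1.

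**Figure D1:**
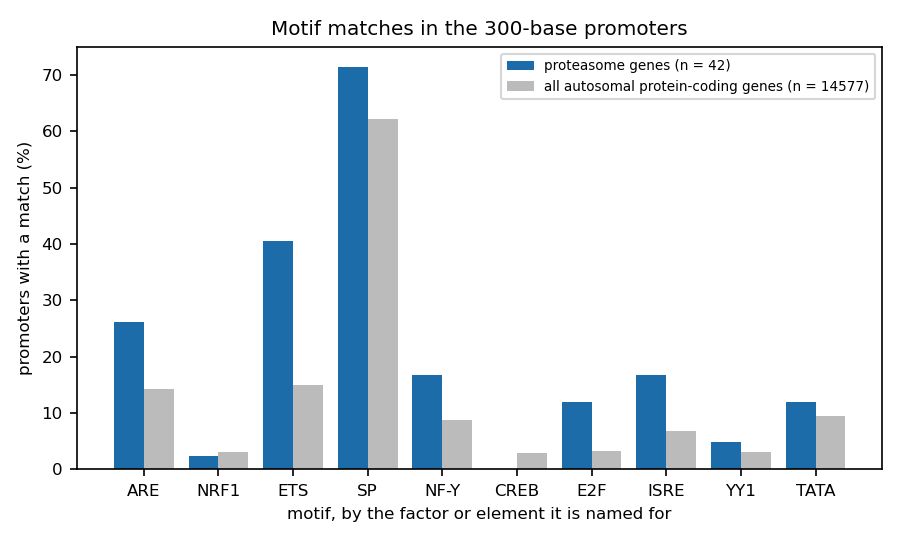
Share of promoters (vertical axis, percent) with at least 1 match to each of 10 motifs (horizontal axis), for the 42 proteasome promoters (blue) and all 14577 autosomal protein-coding promoters (grey) of the same 300 bases. The ETS bars stand farthest apart in percentage points, at 40.5% and 14.9%, and the CREB motif was found in 0 of the proteasome promoters.

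To see which proteasome genes carried the active mark in these cells, H3K27ac was examined at their start sites. Of the 48 genes, 46 (95.8%) had an H3K27ac peak within 2 kb of a start site, against 67.3% of all autosomal protein-coding genes. The 2 without a peak were PSMA8, an alpha subunit of the testis, and PSMB11, the beta subunit of the thymus. All autosomal genes of the ordinary particle therefore had a peak, and the 2 genes that lacked it were those known for use in a single tissue. PSMB11 starts 7312 bp from PSMB5 on chromosome 14, which had one of the highest densities. In 44 of the 46 genes the peak covered the canonical start site. The exceptions were PSMA1 and PSMG4, which have start sites spread over 123254 and 27253 bp and whose chosen peaks lay at other starts.

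Levels were compared between genes per kb of peak width, as the authors' mean normalized count divided by the width of the peak, called density here. Across the 46 genes density ranged from 39.7 to 505 with a median of 217, against a median of 187 for the 12628 genes with a peak. Of the 46 genes, 30 (65.2%) lay above the median gene, 13 (28.3%) lay above percentile 75 of all genes and 4 (8.70%) below percentile 25. The genes thus lay somewhat above the middle of all active promoters and were spread over most of the range. Peak widths were ordinary, with a median of 2900 bp against 2989 bp, and the median mean count was 674 against 613. No test was made between the set and other genes.

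**Figure D2:**
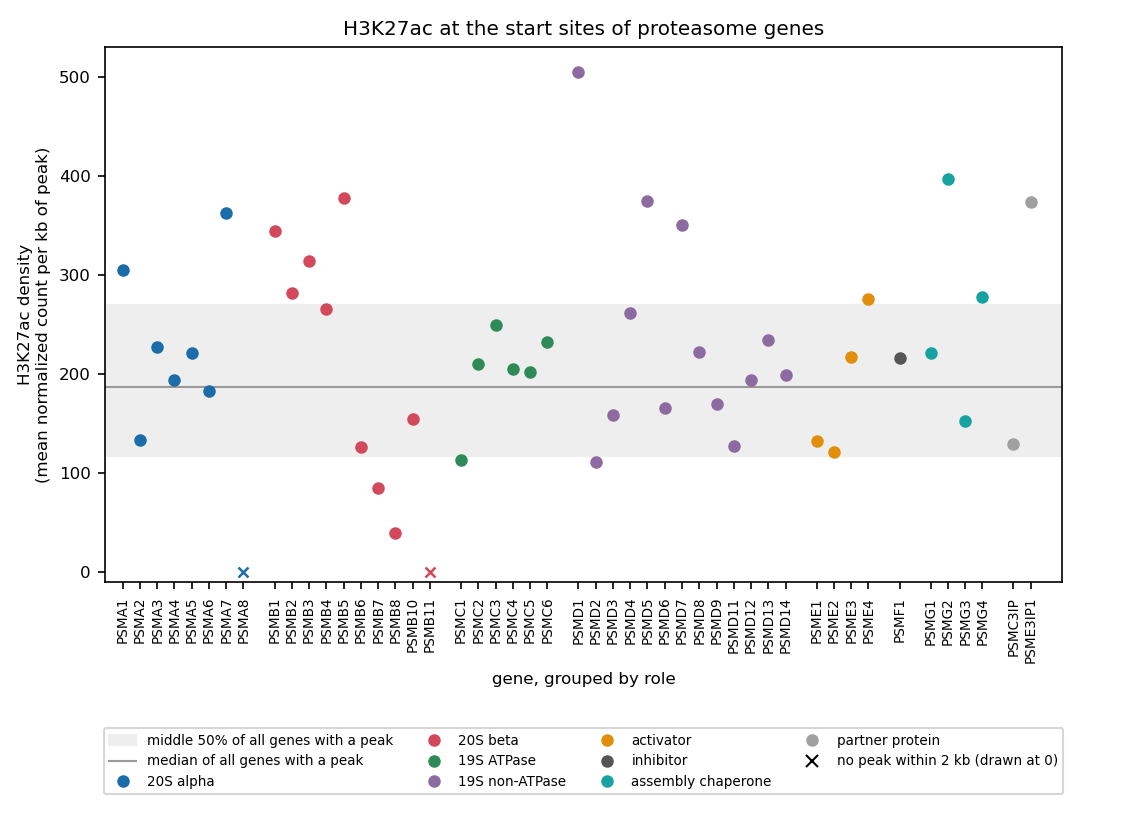
H3K27ac density (vertical axis, authors' mean normalized count per kb of peak) at each of the 48 genes (horizontal axis), coloured by role. The line is the median and the band the middle 50% of all genes with a peak. PSMD1 is highest at 505 and PSMB8 lowest at 39.7, and crosses mark PSMA8 and PSMB11, which had no peak.

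The PSMD genes held the extremes of the cap. PSMD1, a large scaffold subunit of the cap base, had the highest density of all members. Its peak (hg38, chr2:231055967-231060137, over the canonical start and exon sequence) had a mean count of 2107 and a density of 505, at percentile 97.5 of all genes. PSMD5, an assembly chaperone of the cap base and not a subunit of the finished particle, followed at 375 (chr9:120841760-120844602, mean count 1065) and PSMD7, a partner of the deubiquitinase, at 351. PSMD4, a ubiquitin receptor, had 262. The lowest of the PSMD genes was PSMD2, the other large scaffold of the base, at 111. Its peak was wide (chr3:184294428-184300223, 5795 bp) and its mean count of 643 was close to the median of the set, at percentile 51.8 of all genes before the division by width. PSMD11, which links lid and base, had 128. PSMD14, the deubiquitinase, had 199 and PSMD3, PSMD6, PSMD8, PSMD9, PSMD12 and PSMD13 lay between 159 and 235. Over the 13 PSMD genes the median was 199. The 6 ATPase genes were closer together. PSMC2, PSMC3, PSMC4, PSMC5 and PSMC6 ranged only from 203 to 250, and PSMC1 stood apart at 113 (chr14:90255930-90257574, mean count 186).

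In the core, PSMB5, the chymotrypsin-like catalytic subunit, had a density of 378 (chr14:23033607-23036262, mean count 1005, percentile 91.0). PSMB7, the trypsin-like catalytic subunit, had 85.6 (chr9:124414399-124415939, mean count 132, percentile 14.9). PSMB6, the caspase-like subunit, had 127 (mean count 315). Of the 3 constitutive catalytic genes, whose products are needed in equal numbers in each core, PSMB5 was thus above the median gene and the other two below it. The structural beta genes were all high, with PSMB1 at 345, PSMB3 at 314, PSMB2 at 282 and PSMB4 at 266. The alpha genes PSMA2 to PSMA7 ranged from 134 (PSMA2) to 362 (PSMA7), with PSMA6 at 183, PSMA4 at 194, PSMA5 at 221 and PSMA3 at 227. PSMA1 had 305 at its chosen peak (chr11:14642790-14647856), which lies 122404 bp from the canonical start at the start of PDE3B, and 203 at the canonical start. The highest mean count of any member was 4230 at PSMB3. Its peak spanned 13459 bp (chr17:38740642-38754101) and also held the start of PCGF2, a Polycomb gene, so these reads cannot be given to PSMB3 alone. In 11 of the 46 genes the peak held the start of another protein-coding gene, among them TBP beside PSMB1, SS18L1 beside PSMA7 and FTSJ3 beside PSMC5. How often this occurs over all genes with a peak was not counted, so it cannot be called a trait of the set.

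**Figure D3:**
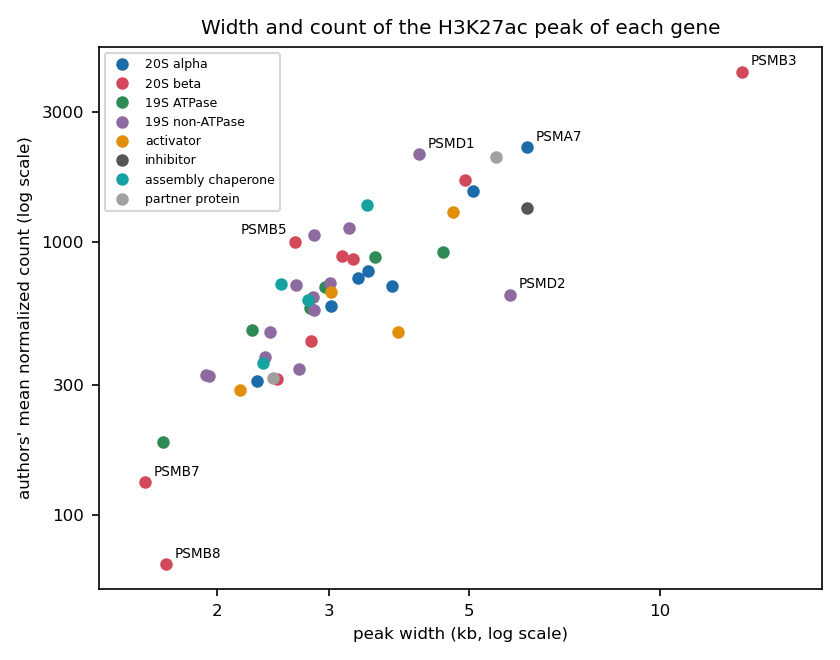
Width of each gene's H3K27ac peak (horizontal axis, kb, log scale) against the authors' mean normalized count (vertical axis, log scale) for 46 proteasome genes, coloured by role. PSMB3 lies at the upper right with 4230 counts over 13459 bp, PSMD2 lies low for its width, and PSMB8 and PSMB7 lie at the lower left.

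The interferon-inducible genes were low as a group, but low densities were not confined to them. Outside this group PSMB7 had 85.6, PSMD2 111 and PSMC1 113, while 30 of the 46 genes lay above the median gene. PSMB8, the inducible counterpart of PSMB5, had the lowest density of the 46 genes (39.7, percentile 1.93). Its peak (chr6:32843602-32845263) had a mean count of 66.0, whereas that of PSMB5 had 1005. PSME2 had 122 (chr14:24144944-24148800, mean count 470), PSME1 133 (chr14:24134866-24137039, mean count 288) and PSMB10, the inducible counterpart of PSMB7, 155 (chr16:67934933-67937743, mean count 435). All 4 lay below the median gene, at percentiles from 1.93 to 39.2, and all 4 hold the GAAAGCGAA letters shown above. PSMG4, the other gene with these letters, had a density of 278 at its chosen peak (percentile 76.6) and 104 at the canonical start. The mean covers both states, so these values do not say whether the mark differed between them. PSMB10 was higher than PSMB7, its constitutive counterpart, so the inducible genes were not lower in each pair. PSME1 and PSME2 start 10416 bp apart and had separate peaks.

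The other activators and the regulators were near or above the median gene. PSME3, the activator of the nucleus, had a density of 218, and PSME4, a large activator linked to histone degradation, had 276. PSMF1 had 216 over a peak of 6174 bp. Of the core assembly chaperones, PSMG2 had 397 (chr18:12701303-12704751, mean count 1369, percentile 92.7), the second highest of all members, and its partner PSMG1 had 222. Its peak also held the start of CEP76. PSMG3 had 153. PSMG4 had 278 at a start 26048 bp from its canonical one and 104 at the canonical start, which would place it among the lowest. The partner genes were unlike each other, PSME3IP1 with 374 (chr16:57184499-57190002, mean count 2056) and PSMC3IP, whose product acts in meiotic recombination, with 129.

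Genes that act with the proteasome were described from a list of 19. All 19 had an H3K27ac peak, 16 lay above the median gene and 10 above percentile 75, with a median percentile of 77.5. RPS27A (density 354) and UBB (345), which encode ubiquitin, were among them. The transcription factors NFE2L1 and NFE2L2 had 315 and 419, and of the proteins that process NFE2L1, VCP had 282, NGLY1 194 and the protease DDI2 85.6. UCHL5 and USP14, deubiquitinases that join the cap, had 353 and 195, the ubiquitin receptor ADRM1 157, and the core maturation factor POMP 204.

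To see whether CTCF occupied the same promoters, CTCF peaks were examined in the same windows. Of the 48 genes, 24 (50.0%) had a CTCF peak, against 48.5% of all genes, so the proteasome genes did not stand apart in this count. Means ranged from 5.81 to 1141, with a median of 82.3 against 86.3 for all genes with a CTCF peak. A mean of at least 50 was reached by 15 of the 24 (62.5%), against 62.7% of the chosen CTCF peaks of all genes. Density had a median of 95.6 against 82.1 over the 9107 genes with a CTCF peak, and 13 of 24 genes lay above the median gene.

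The higher CTCF values were mainly at PSMD genes. Of the 13 PSMD genes 9 had a CTCF peak, with a median density of 146. The peaks of PSMD2, PSMD8 and PSMD13 were low, at percentiles 33.1, 27.8 and 35.6. A CTCF peak was present at 3 of 8 PSMA genes (median 39.9), 4 of 10 PSMB genes (76.9) and 3 of 6 PSMC genes (91.1). Over all genes the share with a peak was 48.5%, and no test was made between these small groups. The PSMA1 peak lay 123215 bp from the canonical start. Outside the PSMD genes, PSMC3IP had 190 and PSMC4 177. PSMD1 was highest, with a mean count of 1141 and a density of 520 (chr2:231055575-231057769), at percentile 99.9 of all genes. PSMD6 followed with 562 and 328 (chr3:64022751-64024464), PSME3 with 380 and 281 (chr17:42823650-42825002), PSMD4 with 540 and 267 (chr1:151250822-151252844) and PSMD11 with 437 and 203 (chr17:32443378-32445529). These 5 genes were all at or above percentile 87.8. The peaks of PSMD1, PSMD6 and PSMD11 covered the start site. Those of PSMD4 and PSME3 did not, lying 1890 and 8395 bp from the canonical start, and PSME3 had no CTCF peak at that start.

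**Figure D4:**
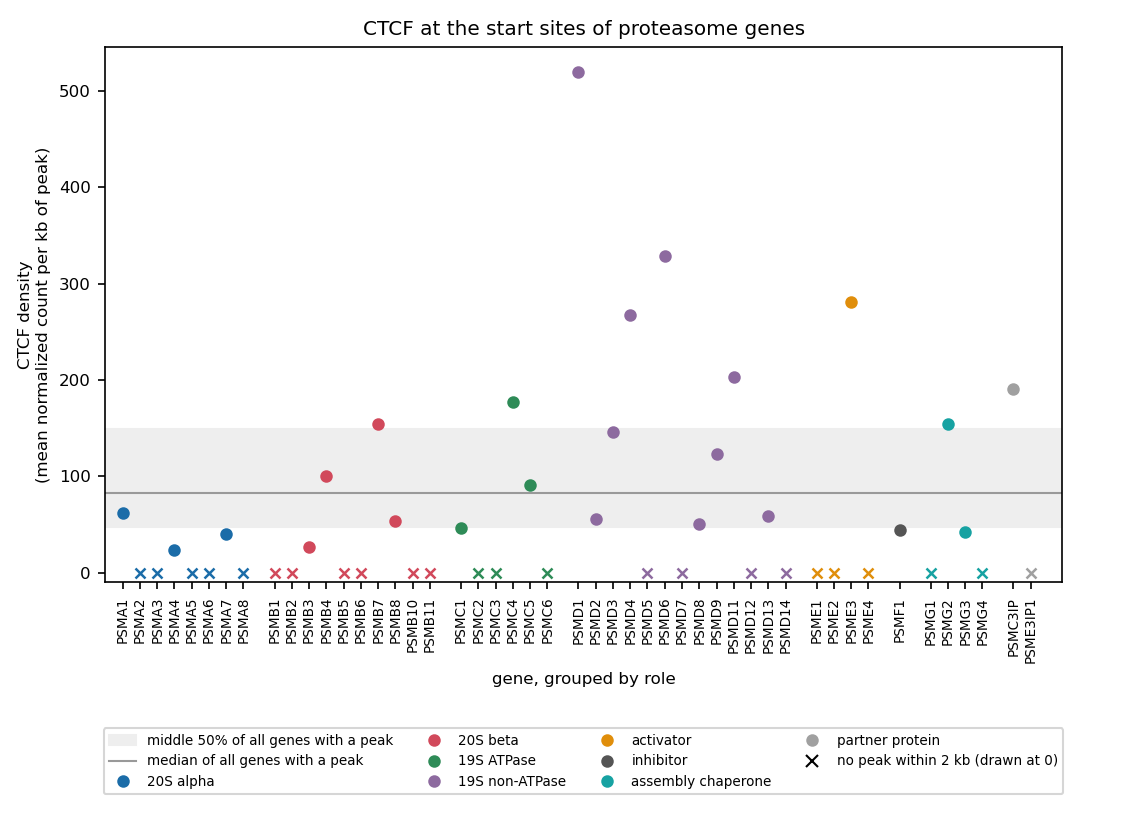
CTCF density (vertical axis, authors' mean normalized count per kb of peak) at each of the 48 genes (horizontal axis), coloured by role, with crosses for the 24 genes without a CTCF peak. The line is the median and the band the middle 50% of all genes with a CTCF peak. PSMD1 at 520 and PSMD6 at 328 stand highest, and the 3 alpha genes with a peak lie below the line.

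The letters under these peaks were read from hg38. A match to the CTCF core motif with at most 1 mismatch lay in 3 of the 24 chosen peaks (12.5%), against 37.0% of the chosen CTCF peaks of all genes and 47.2% of all CTCF peaks. The study's methods describe a filter of CTCF peaks for the motif by a scan that was not repeated here, and whether the deposited table was made before or after that filter was not tested. The 3 genes were PSMD1, PSMD6 and PSMD2, so the 2 highest peaks of the set held a match and most others did not. The peak of PSMD2 was low (mean count 58.3) and lay 5989 bp from the canonical start. The matches are shown in the direction of the motif, with the core in capitals.
PSMD1, no mismatch, 299 bases before the start (plus strand, chr2:231056553-231056584): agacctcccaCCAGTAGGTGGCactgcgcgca
PSMD1, 1 mismatch, 531 bases after the start (plus strand, chr2:231057383-231057414): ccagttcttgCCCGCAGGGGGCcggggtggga
PSMD6, 1 mismatch, 62 bases before the start (minus strand, chr3:64023541-64023572): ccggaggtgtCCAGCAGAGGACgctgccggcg
PSMD2, 1 mismatch, 6525 bases after the start (plus strand, chr3:184305751-184305782): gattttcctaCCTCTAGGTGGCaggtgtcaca
The surroundings of the PSMD1 site, the only one with no mismatch, are given as the 300 bases that end 31 bases before the start, with the core in capitals.
PSMD1 (plus strand, chr2:231056537-231056836): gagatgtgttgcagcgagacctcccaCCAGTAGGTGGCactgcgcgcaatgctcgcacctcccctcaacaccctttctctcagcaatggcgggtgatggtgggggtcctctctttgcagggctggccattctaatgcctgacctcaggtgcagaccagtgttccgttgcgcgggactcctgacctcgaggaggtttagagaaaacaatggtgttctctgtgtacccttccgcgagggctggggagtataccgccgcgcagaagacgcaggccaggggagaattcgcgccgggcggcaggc
Density of H3K27ac and of CTCF did not order the genes alike. Over the 24 genes with both peaks, Spearman's rho was 0.017 and Pearson's r of log2 densities 0.13, and over the 7598 genes with both, rho was -0.034. These are descriptions across genes, which share libraries. PSMD1 was highest for both marks, whereas PSMB7, which was next to lowest for H3K27ac, had a CTCF density of 154.

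The states could be compared through the deposited lists of enhancers, 14886 in non-senescent and 13076 in senescent cells. A further list gave 2435 senescence-specific Rb regions, called with non-senescent libraries as the control. Rb bound alike in both states would not be in it. Rb is the retinoblastoma protein, which binds and silences cell-cycle promoters. A listed Rb region lay within 2 kb of a start site in 0 of 48 genes, against 1.6% of all genes. At that share few or no members would be found in a set of this size. The nearest listed region lay 8883 bp from a PSMD2 start.

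The H3K27ac peak of 0 of 46 genes overlapped a listed enhancer, against 5.96% of all genes with a peak. The lists leave out promoters by construction. A listed enhancer of either state lay within 50 kb of a start site in 24 of 48 genes (50.0%), against 48.4% of all genes. Among the enhancers whose nearest gene was a proteasome gene, the closest lay by PSMD1. It was listed in both states, in senescent cells at chr2:231047111-231053839 and in non-senescent cells at chr2:231048026-231054049, 2796 bp from the nearest PSMD1 start by the second list, and its H3K27ac peak had a mean count of 3382 and a density of 484. PSMB5 was the gene nearest to another enhancer of both lists, at chr14:23023551-23028557 in senescent and chr14:23023571-23027323 in non-senescent cells, with a density of 77.5. PSMD11 and PSMD12 were the nearest genes to enhancers of both lists with densities of 150 and 239. PSMC6 had the most enhancers within 50 kb after PSMA1, 3 in the non-senescent and 4 in the senescent list.

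An enhancer listed in senescent cells alone lay within 50 kb of 6 genes (12.5%), against 12.7% of all genes. The 6 were PSMB10, PSMC3, PSMD6, PSMD11, PSMD13 and PSMG1, with 1 enhancer each, 14176 to 37239 bp from a start. Only the one by PSMG1 (chr21:39197665-39198298) had a proteasome gene as its nearest gene. The others were nearest to PSKH1, SLC39A13, ATXN7, CDK5R1 and RIC8A. The one by PSMB10 (chr16:67908112-67911303) had the highest mean count of the 6, 226. An enhancer listed in non-senescent cells alone lay within 50 kb of 3 genes (6.25%), against 17.4% of all genes. These were PSMA1 (chr11:14614455-14620783, mean count 539), PSMB7 (chr9:124386218-124387410, mean count 85.9) and PSMD3, whose enhancer was nearest to GSDMA. The PSMA1 enhancer lay 22834 bp from a PSMA1 start but 94068 bp from the canonical one. With canonical starts alone the count was 2 of 48 genes (4.17%), against 14.9% of all genes. No gene had both kinds, but the share of all genes with both was not counted, so this cannot be called a trait of the set. Mean counts and densities given for these 9 enhancers are those of the H3K27ac peak at each, which can be wider than the enhancer. The densities ranged from 43.1 to 73.0, below those of all proteasome promoter peaks but PSMB8. The share for senescent cells was close to that of genes at large by this definition of an enhancer listed in 1 state. With an enhancer taken as shared only if 50% of its length overlapped the other list, it was 11 of 48 genes (22.9%), against 14.7% of all genes. The lists carry no value for how strongly an enhancer was supported in either state, so an enhancer in 1 list alone may still hold some mark in the other.

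**Figure D5:**
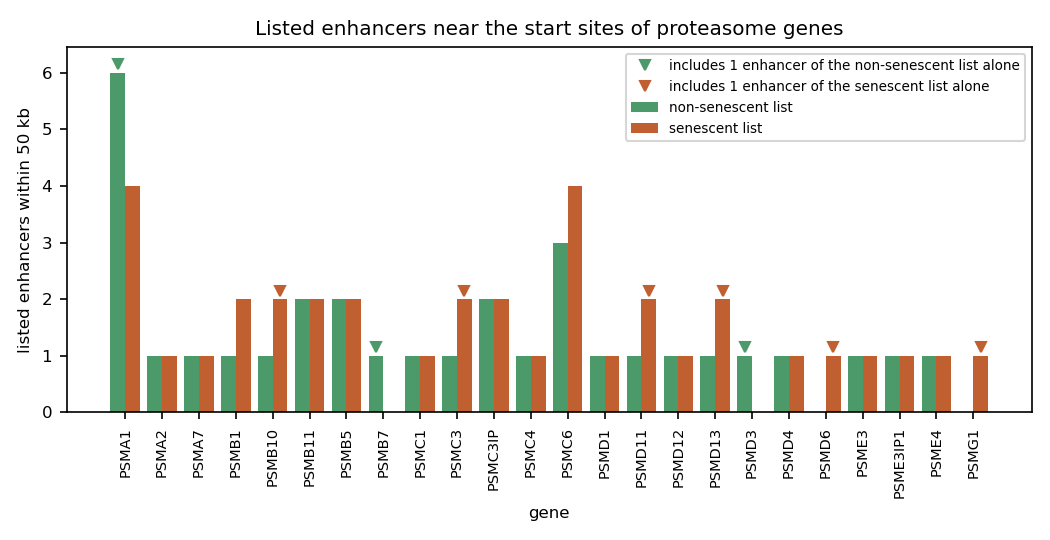
Number of listed enhancers (vertical axis) within 50 kb of the start sites of the 24 proteasome genes that had any (horizontal axis), in the non-senescent list (green) and the senescent list (orange). Triangles mark the 3 genes with an enhancer of the non-senescent list alone and the 6 with one of the senescent list alone.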

How the data were processed

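The groups of the ChIP-seq libraries (antibody and state) were read off the labels. The study's methods state that Trim Galore, Bowtie2 (hg38) and removal of duplicates for the histone marks and Rb came first. The authors then used HOMER for peaks of both histone marks and MACS2 for those of CTCF, each against input, kept CTCF peaks that held a CTCF motif, and used MACS2 for Rb regions with non-senescent libraries as the control. The methods give 1 sequencing target for all libraries and not the reads obtained in each. Tool versions are not given in the sources used here. The deposited signal is the authors' mean of DESeq2-normalized read counts over the 6 libraries of both states. The deposited log2 fold change, its error and the p-value columns are the authors' own comparison and were not used. The region lists give positions only. A genome-wide shift of a mark cannot be seen after such normalization.

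Peaks were joined to the start sites of GENCODE 44 protein-coding transcripts (window 2 kb, overlap at least 1 bp) in Python 3.11.15 with pandas 2.3.3, and density was mean count per kb. Percentiles are among all autosomal protein-coding genes with a peak. Peak coordinates are printed as deposited, and starts of listed regions were made 1-based. The steps were tested on simulated data. The rule for named genes took the 5 highest and 5 lowest H3K27ac densities, the 5 highest CTCF densities, all genes without a peak and the 4 inducible genes in full. The members and lists were chosen with earlier results of these data known, so no tests were made. Alternatives changed the window, the start site, the choice of peak, the CTCF peaks kept and the enhancer distance and overlap. Some genes of the list of genes that act with the proteasome are not reported here.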

Additional observations from a re-analysis of the deposited data

How the results depend on the processing

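Of 42 alternative counts, 33 lay within 1.5 times the reported count. Among the 33 are counts of 0 that stayed at 0 and counts that only left out the 2 partner genes. Such counts had little room to move, so this tally is not a measure of how firm the results are. With the window set to 1 or 5 kb, with the canonical start site alone, and without the 2 partner genes, the count of genes with an H3K27ac peak was 46 of 48 (44 of 46 without the partner genes). The CTCF count was the one that depended on which peaks were kept. With CTCF peaks of a mean of at least 50, 15 genes had one (31.25%, against 30.4% of all genes), and with peaks that hold a core motif, 4 genes had one (8.33% against 19.6%), of which 2 lay above the median gene in density. The enhancer counts moved with the distance, as did those of all genes. Within 20 kb, 11 genes had a listed enhancer (22.9% against 28.7% of all genes), 2 had one of the senescent list alone (4.17% against 6.5%) and 0 one of the non-senescent list alone (8.85% of all genes). Within 100 kb, 10 and 11 genes had one of the senescent or the non-senescent list alone (20.8% against 21.7%, and 22.9% against 29.2%). Where an enhancer counted as shared only if 50% of its length overlapped the other list, 11 genes had one of the senescent list alone (22.9% against 14.7%), so the share close to that of genes at large did not hold there. Within 50 kb the shares were 12.5% (senescent list alone) and 6.25% (non-senescent list alone), against 12.7% and 17.4% of all genes. The order of these 2 shares of proteasome genes did not hold within 100 kb.

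No paired analysis was possible because the tables hold no values per library. For the same reason leaving out single libraries was not run, and the spread between libraries and the depth per library limit every level given here.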
